A study of Mus musculus with 13 samples.

Results

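A late-stage 4T1 tumour in which pericytes had been ablated was compared with its late control tumour, each measured on 1 Illumina bead array. These are 2 of the 13 arrays analysed here, assigned to their groups by their labels and not by measured values, and 8386 genes were measured on the pair. 4T1 is a mouse mammary carcinoma line, here grown orthotopically in mice that all received ganciclovir (GCV). The ablation tumour grew in a PDGFRb-TK host, in which the Pdgfrb promoter drives a thymidine kinase that turns ganciclovir toxic, chiefly to dividing cells. The promoter is active in pericytes and also in vascular smooth muscle cells and some fibroblasts. The late control is named WT in its description and as the ablation control in its title, whereas its genotype field reads PDGFRb-TK, as it does for every array of the study. It is called the late control here. The labels do not give the age or strain of the mice or the number of tumours behind an array. An early ablation tumour and its early control, also GCV-injected and 1 array each, were run on the same platform. On a second platform, GCV-injected PDGFRb-TK and WT hosts treated with control IgG antibody (TK/IgG and WT/IgG, 3 arrays each) gave replicated values. A further 3 arrays there, from GCV-injected PDGFRb-TK hosts treated with anti-Ang2 antibody, entered only the normalisation, the filter and the estimate of the spread. Their tumour stage is not in the labels, and nothing states whether the platforms shared tumours or whether the 3 arrays of a group came from separate mice.

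Pericytes wrap the endothelial tube of capillaries, share its basement membrane and stabilise it through platelet-derived growth factor, angiopoietin and transforming growth factor signals. In carcinomas they lie beside fibroblasts, which lay down the fibrillar collagens of the stroma, and among recruited myeloid cells. Endothelial cells release PDGF-B, and the receptor encoded by Pdgfrb holds pericytes on the vessel. Because a bulk tumour was measured, fewer cells of a type and less RNA per cell cannot be told apart.

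Values below are log2 signals after background correction and quantile normalisation of the 4 arrays of the platform, and a log2 ratio is the late ablation array minus the late control array. With 1 array per group there is no replicate check, and the ratios carry no test. A gene was called higher or lower past the fold at a log2 ratio of 1 in size, that is 2-fold. Of the 8386 genes, 38 were higher past the fold (0.453%) and 65 were lower past the fold (0.775%). Of these, 5 higher and 14 lower genes were above background on 1 array only. They were counted by their normalised values, although the bound on their fold can lie under 2-fold. With genes above background on both arrays the counts were 33 higher and 51 lower. Of all genes 51.5% were above 0 and 48.4% were below 0. These shares, with those past the fold, are the background for the list counts below. The median log2 ratio was 0.0099 and the SD across genes was 0.317. The 2 late arrays correlated at r = 0.981 across genes, which are not independent replicates. These counts depend on the scale. The authors' processed values, from which a constant background had been taken off, gave 333 genes higher and 249 lower, and a normexp offset of 16 gave 65 higher and 113 lower. The members nearest the limit were Mmp23 at -1.003 and Mcpt1 at 1.01 inside it, and Bicc1 at -0.99 and Isg15 at 0.996 outside it. Mcpt1 was above background on the ablation array only.

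**Figure D1:**
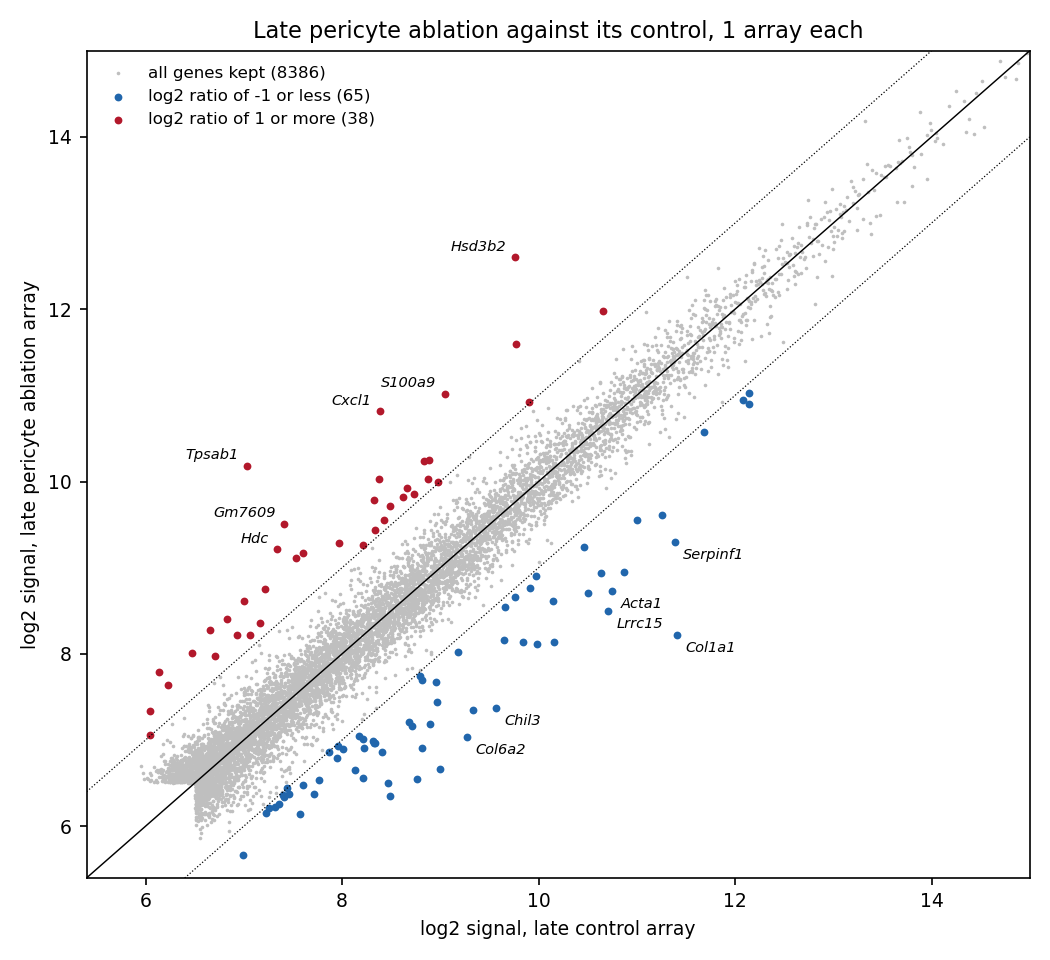
Log2 signal of the 8386 genes on the late control array (horizontal axis) and the late pericyte ablation array (vertical axis), 1 point per gene. The solid line marks equal signal and the dotted lines a log2 ratio of 1 in size; 38 genes lie above the band and 65 below it, with Tpsab1 and Hsd3b2 farthest above and Col1a1 farthest below.

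Pdgfrb, the receptor whose promoter drives the transgene, read 6.67 on the late ablation array and 7.45 on the late control array, a log2 ratio of -0.78. The early ablation array read 7.03 and the early control 6.97, so the early pair differed little. In the replicated hosts Pdgfrb read 6.11, 5.64 and 6.23 on the TK/IgG arrays and 7.01, 6.93 and 7.33 on the WT/IgG arrays, and the groups did not overlap. Their difference was -1.10 ± 0.26 (SE, n = 3 against 3), with a limma adjusted p = 0.999 over 11057 genes. The transgene itself has no probe among the genes used here.

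Among 14 pericyte and mural cell genes measured of 20 on the array, 11 were below 0 in the late pair, against 48.4% of all genes. The median log2 ratio was -0.28 against 0.0099 over all genes. The 11 include Des, read after its value was seen, with log2 ratios of -0.65 late and 3.23 early. Des is also counted among the skeletal muscle genes below. Of the 14, 10 were above background on both late arrays, with a median of -0.22. The other 4 were kept through the control array only, where they were high, so the filter largely set their direction. Lower past the fold was 1 gene, against 0.775% of all genes. That gene was Acta2, the smooth muscle actin of mural cells and myofibroblasts, at 10.90 on the ablation array and 12.14 on the control array. The early arrays read 11.86 and 11.81 for Acta2, between the 2 late values. Mcam, an adhesion molecule of pericytes and endothelium, read 8.47 against 8.998. The ATP-sensitive potassium channel subunit gene Abcc9 and the pericyte gene Higd1b, taken up after their values were seen, were above background on the control array only and were at least 1.17-fold and at least 1.23-fold lower. Rgs5, a regulator of G-protein signalling that marks pericytes, was likewise above background on the control array only, where it lay close to the detection limit, and was at least 1.02-fold lower. Pdgfa, a ligand of the PDGF family, went the other way at 10.72 against 10.21. Cspg4, the NG2 proteoglycan of pericytes, was not well above background on either array.

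Among the gene lists, stromal matrix had the lowest median in the late pair. Of 25 fibroblast and interstitial matrix genes measured of 28 on the array, 13 were lower past the fold, against 0.775% of all genes, and 0 were higher. In all, 23 of the 25 were below 0, and their median log2 ratio was -1.11. Of the 25, 19 were above background on both late arrays, with a median of -1.22, and 6 on the control array only. Col1a1, an alpha chain of the type I collagen that forms stromal fibrils, read 8.22 on the late ablation array and 11.41 on the late control array, a log2 ratio of -3.19 and the lowest of all 8386 genes. Both early arrays, at 9.63 with ablation and 9.45 without, lay between the late values. Col6a2, a chain of the beaded-filament type VI collagen, read 7.03 against 9.27, with 8.68 and 8.76 on the early ablation and early control arrays. Serpinf1, which encodes the secreted antiangiogenic serpin PEDF, read 9.30 against 11.39. Loxl1, an enzyme that cross-links elastin fibres, read 8.14 against 10.15. Lum, the collagen-binding proteoglycan lumican, and Eln, elastin itself, were above background on the control array only and were at least 3.96-fold and at least 2.10-fold lower. Both were taken up after their values were seen. At the other end of the list, S100a4 had a log2 ratio of 0.42.

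Some matrix genes outside that list were also among the lowest ratios, as chosen by size. Lrrc15, a membrane protein of myofibroblast-like cancer-associated fibroblasts, read 8.50 on the late ablation array and 10.71 on the late control array. Thbs2 and Tnc encode matricellular proteins that modulate cell adhesion. Thbs2 read 8.95 against 10.87, and Tnc read 9.61 against 11.25. Mmp2, the gelatinase A that stromal cells secrete, read 8.94 against 10.63, and Ctsk, the collagen-degrading cathepsin K, had a log2 ratio of -1.53. These were the 2 lower genes among 18 matrix proteases and inhibitors, whose median was 0.068. Of these proteases and inhibitors 12 were above 0, with the macrophage elastase Mmp12 the highest at 8.75 against 8.09. The other genes with the lowest ratios were Olfml3 (a secreted olfactomedin-domain protein) at -1.98, Nrep at -1.87 and Ppic (the prolyl isomerase cyclophilin C) at -1.80. For all 14 lower genes that had several probes above background, every probe gave a ratio below 0. Of the 9 higher genes with several probes, 6 had all probes above 0.

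For most matrix genes the 2 late arrays were the extremes of the 4 arrays of the platform. The late ablation array had the lowest value of the 4 in 21 of 25 fibroblast and matrix genes (84.0%, against 26.4% of all genes). The late control array had the highest value in 16 of them (64.0%, against 21.4% of all genes), and both held for 15, against 5.08% of all genes. These counts include the 6 genes kept through the control array only, for which the filter favoured this order of the late arrays. In the early pair the list had a median log2 ratio of 0.12, with 1 gene higher and 0 lower past the fold, against 0.942% and 0.155% of all genes.

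**Figure D2:**
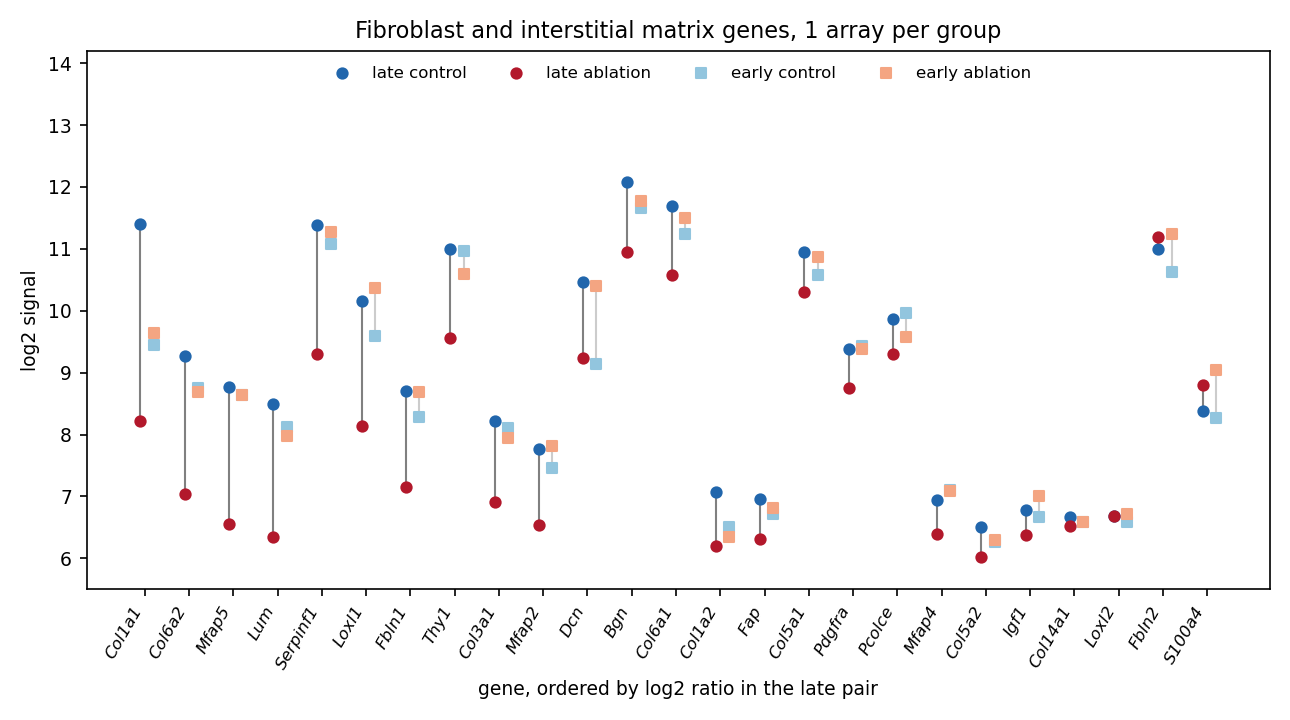
Log2 signal of the 25 fibroblast and interstitial matrix genes on the 4 arrays of the platform, ordered by log2 ratio in the late pair; circles are the late arrays, squares the early arrays, and a grey line joins the 2 arrays of a pair. Col1a1, at the left, reads 8.22 with late ablation and 11.41 in the late control, with both early arrays between them.

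Of 12 vascular basement membrane genes measured of 13 on the array, 8 were below 0, against 48.4% of all genes. Lower past the fold were 2, against 0.775% of all genes, and the median of the 12 was -0.38. Col15a1, a collagen that ties the basement membrane to the interstitium, read 7.67 against 8.96, and both early arrays (8.32 and 8.62) lay between. Sparc, a collagen-binding matricellular protein, read 11.03 against 12.15. Nid1, the nidogen that links laminin to type IV collagen, had a log2 ratio of -0.98, and Col4a2, a type IV collagen chain, one of -0.67. The basement membrane proteoglycan Agrn, read after its value was seen, was at 0.24.

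All 21 endothelial genes measured of 27 on the array were below 0, against 48.4% of all genes. Lower past the fold were 3, against 0.775% of all genes. The median log2 ratio of the 21 was -0.50 against 0.0099 over all genes. Of the 21, 16 were above background on both late arrays, with a median of -0.57, and 5 on the control array only. Cdh5, the VE-cadherin of endothelial junctions, was above background on the control array only and was at least 1.64-fold lower. Esam, an endothelial adhesion molecule, read 8.90 on the late ablation array and 9.98 on the late control array. Egfl7, a secreted endothelial protein, read 9.07 against 10.004, but its probes ranged from -0.94 to 0.14. Emcn, the sialomucin endomucin of capillaries and veins, read 8.02 against 8.90. Ramp2, the adrenomedullin receptor partner, had a log2 ratio of -0.84. Pecam1, the CD31 adhesion molecule, differed less, at 7.52 against 7.89. Tek, the angiopoietin receptor, was above background on the control array only and was at least 1.28-fold lower. Here the late ablation array had the lowest value of the 4 in 19 of the 21 genes (90.5%, against 26.4% of all genes). The late control had the highest in 3. These counts include the 5 genes kept through the control array only, for which the filter favoured a low late ablation value. The early pair had a median of -0.15 over the same genes, and none was past the fold.

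Angiogenic ligands and receptors showed no common direction, with 11 of 17 measured genes above 0, 1 higher and 1 lower past the fold and a median of 0.10. Angpt2, the angiopoietin that antagonises Tek on destabilised vessels, read 8.88 on the late ablation array and 8.78 on the late control array. The early arrays read 9.26 with ablation and 9.60 without, so that Angpt2 was higher on both early arrays than on either late one. In the replicated hosts Angpt2 read 11.11, 10.29 and 10.29 on the TK/IgG arrays and 10.11, 9.90 and 10.20 on the WT/IgG arrays. The groups did not overlap, with a difference of 0.49 ± 0.24 (SE, n = 3 against 3) and a limma adjusted p = 0.999. Vegfa, the main endothelial growth factor, read 9.15 against 8.81 in the late pair. Angptl4, a secreted angiopoietin-like protein, had a log2 ratio of 0.60 and Unc5b, a netrin receptor of endothelium, one of 0.47. The co-receptor Nrp1 was at -0.42 and the growth factor Pdgfc at -0.40. The gene past the fold upward was Cxcl12, the stromal chemokine, at 8.21 against 7.06, and the one downward was the apelin receptor Aplnr, at least 2.15-fold lower and above background on the control array only. Angpt1, the agonist that pericytes make for Tek, was not well above background on either array.

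Hypoxia response and glycolysis genes were spread around 0, with 19 of 33 above 0, 0 higher and 1 lower past the fold and a median of 0.11. Car9, a carbonic anhydrase that hypoxia induces, read 10.34 against 9.60, and Ndrg1 read 11.57 against 10.95. Pdk1, which keeps pyruvate out of mitochondria, had a log2 ratio of 0.57. Hif1a, which encodes the hypoxia-inducible factor subunit, had one of 0.11. The lower gene was Lox, a hypoxia-induced lysyl oxidase that also cross-links collagen, at 8.54 against 9.66. In the early pair Lox went the other way, with 9.61 on the ablation array and 8.26 on the control array.

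Markers of epithelial and mesenchymal state were also measured, since loss of epithelial character is a known route of carcinoma spread. Cdh1, the epithelial E-cadherin, read 9.33 on both late arrays, and Vim, the mesenchymal filament vimentin, read 12.34 with ablation and 12.32 in the control. Twist1, a transcription factor of mesenchymal transition, read 7.87 against 7.98. Of 22 mesenchymal transition genes 4 were lower past the fold and 0 higher, against 0.775% and 0.453% of all genes. The median of the 22 was -0.14. The 4 were Tnc and Sparc, both given above, and Twist2 and Wnt5a, whose log2 ratios were both -1.08 and which were read after their values were seen. The growth factors Tgfb1 and Tgfb3 were at -0.47 and -0.44. Of 15 epithelial and tumour cell genes 13 were above 0 and none was past the fold, with a median of 0.42. Krt14, a basal keratin, read 11.40 against 10.42. The claudin Cldn3 of tight junctions, the membrane protease St14 and the simple-epithelial keratin Krt7 had log2 ratios of 0.58, 0.51 and 0.48. The late ablation array was the highest of the 4 in 10 of the 15 (66.7%, against 30.3% of all genes).

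**Figure D3:**
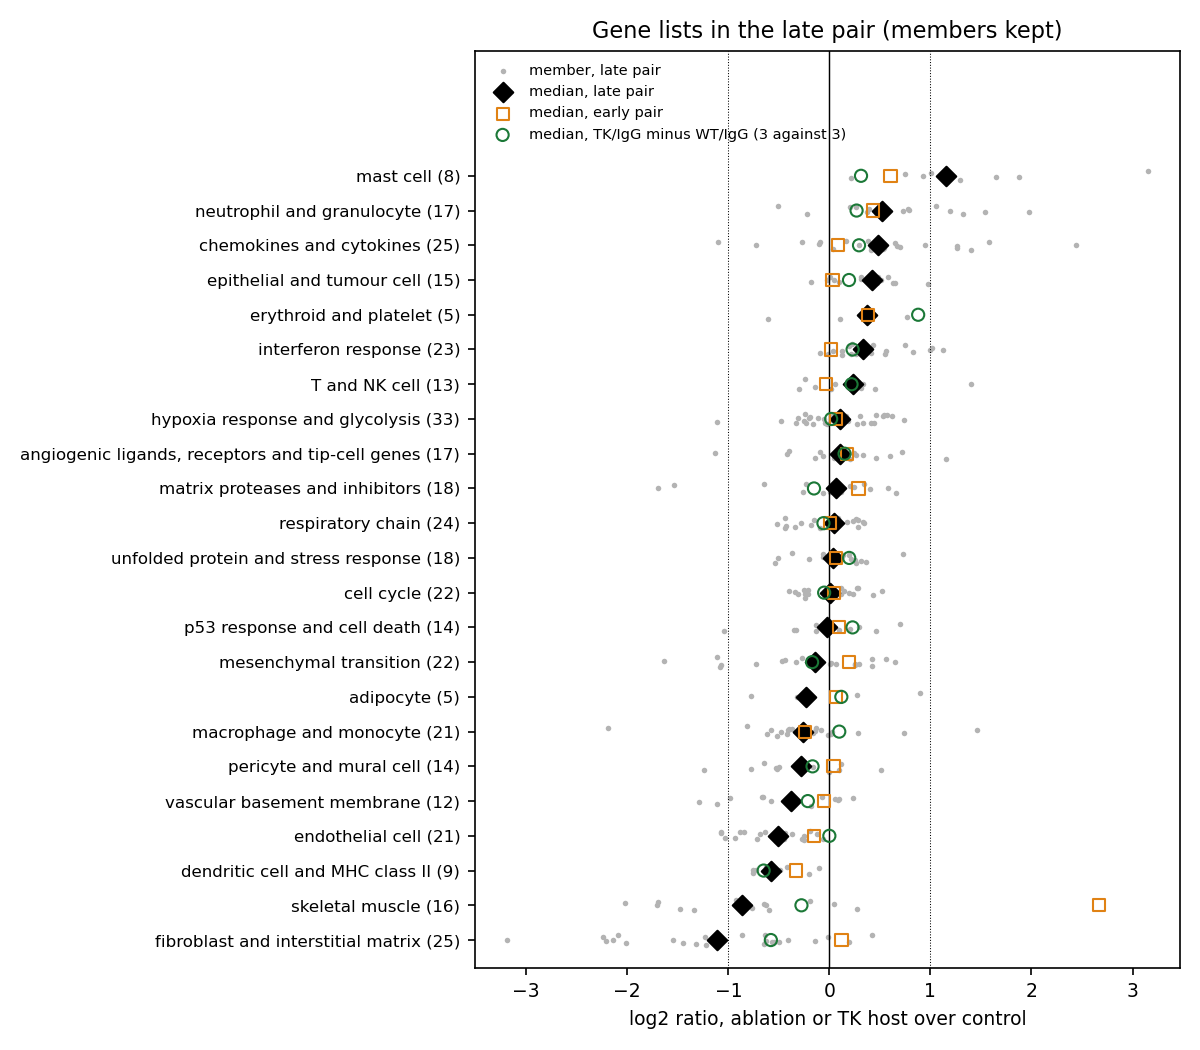
Log2 ratios of the members of each gene list with at least 5 members measured (grey points), their median in the late pair (black diamonds), in the early pair (orange squares) and in TK/IgG minus WT/IgG (green circles). The number of members is in brackets, dotted lines mark a log2 ratio of 1 in size, and the late medians run from -1.11 for fibroblast and matrix genes to 1.15 for mast cell genes.

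At the upper end of the lists stood mast cell genes. All 8 measured of 10 on the array were above 0, 5 were higher past the fold, against 0.453% of all genes, and the median log2 ratio was 1.15. Only 2 of the 8, Tpsab1 and Hdc, were above background on both arrays. The other 6 were kept through the ablation array, where they were high, so these counts were largely fixed by the filter. Tpsab1, a tryptase of mast cell granules, read 10.18 on the late ablation array and 7.03 on the late control array, a log2 ratio of 3.15 and the highest of all genes. The early ablation array read 9.16 and the early control 8.34, both between the late values. Hdc, the histidine decarboxylase that makes histamine, read 9.22 against 7.34, with 9.73 and 8.06 in the early ablation and early control tumours. The tryptase Tpsb2 and the carboxypeptidase Cpa3, read after their values were seen, were above background on the ablation array only in the late pair and were at least 2.43-fold and at least 1.79-fold higher. Tryptase sequences are alike, so the probes may share signal. Of the defining markers, the IgE receptor chain Ms4a2 did not pass the filter and Kit was not analysed here.

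Neutrophil genes lay in the same direction. Of 17 measured of 22 on the array, 15 were above 0, against 51.5% of all genes, and the median was 0.52. Past the fold 5 were higher and 0 lower, against 0.453% and 0.775% of all genes. Of the 17, 14 were above background on both late arrays, with a median of 0.52. The other 3 were kept through the ablation array only, where they were high. S100a9 and S100a8 encode the calcium-binding pair calprotectin, abundant in neutrophils. S100a9 read 11.02 on the late ablation array and 9.04 on the late control array, and S100a8 read 11.98 against 10.66. Retnlg, a resistin-like protein of neutrophils, read 8.75 against 7.21, and Hp, haptoglobin, read 9.26 against 8.21. In the early pair S100a8 read 13.24 against 10.71, further apart than late, and S100a9 read 11.79 against 9.94, slightly closer than late. Over the neutrophil list the early median was 0.44.

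Of 25 chemokine and cytokine genes measured of 32 on the array, 20 were above 0, against 51.5% of all genes, and the median was 0.48. Past the fold 5 were higher and 1 was lower, against 0.453% and 0.775% of all genes. Of the 25, 21 were above background on both late arrays, with a median of 0.42. The other 4 were kept through the ablation array only, where they were high. Cxcl1, a ligand of the neutrophil receptor Cxcr2, read 10.82 on the late ablation array and 8.38 on the late control array, a log2 ratio of 2.44. The early arrays read 11.37 with ablation and 9.68 without, so both ablation arrays lay above both controls. Ccl4, a chemokine that attracts monocytes and lymphocytes, read 9.11 against 7.54, whereas the early pair read 9.30 and 9.44. Il1b, the inflammatory cytokine interleukin-1 beta, read 9.92 against 8.66. Cxcl2, a second Cxcr2 ligand, and Ccl3, another monocyte-attracting chemokine, complete the 5 and were named after their values were seen. Cxcl2 was above background on the ablation array only in the late pair and was at least 2.19-fold higher, and Ccl3 read 7.97 against 6.70. The lower gene was Cxcl14, a chemokine of epithelium and stroma, at 8.66 against 9.76.

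Cxcl1 and Cxcl2 lie next to each other on mouse chromosome 5. Their promoters are shown because these genes were higher with ablation in both pairs and their promoters hold the motif marked below. The presence of the motif in them was thus fixed by the choice. Other genes higher in both pairs, such as Hsd3b2 and S100a8, are not shown. Each sequence runs from 250 bases before to 50 bases after the gene's start in RefSeq's GRCm38.p6, on the plus strand, at chr5:90890995-90891294 for Cxcl1 and chr5:90903649-90903948 for Cxcl2. Capitals mark matches to the NF-kappaB consensus, the site of a factor known to drive inflammatory genes; the motif was picked after the values were seen.
Cxcl1: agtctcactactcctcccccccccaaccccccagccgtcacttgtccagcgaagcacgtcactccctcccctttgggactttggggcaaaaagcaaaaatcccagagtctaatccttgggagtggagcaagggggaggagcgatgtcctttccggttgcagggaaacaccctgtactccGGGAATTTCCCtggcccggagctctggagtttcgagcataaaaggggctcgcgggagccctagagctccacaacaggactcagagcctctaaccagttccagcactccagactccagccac
Cxcl2: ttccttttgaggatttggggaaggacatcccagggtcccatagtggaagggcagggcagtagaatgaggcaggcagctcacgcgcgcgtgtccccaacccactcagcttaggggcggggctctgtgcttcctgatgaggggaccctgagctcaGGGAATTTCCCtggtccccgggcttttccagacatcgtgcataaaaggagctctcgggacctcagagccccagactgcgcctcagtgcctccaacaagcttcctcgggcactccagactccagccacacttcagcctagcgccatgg
Both promoters hold the same run of letters, which matches the consensus once on each strand with the 2 matches overlapping. The consensus was searched on both strands. It was present in 1175 of 27025 promoters of this length (4.35%), in 341 of 6842 promoters of the genes measured in the late pair (4.98%) and in 5 of 18 promoters found for the chemokine list (27.8%). Of those 5, Cxcl1 and Cxcl2 were past the fold in the late pair. Cxcl10, Csf1 and Ccl9 were not, with log2 ratios of 0.41, 0.16 and 0.037. Among genes past the fold it was present in 4 of 29 promoters of higher genes (13.8%) and in 2 of 42 promoters of lower genes (4.76%). Cxcl1 and Cxcl2 are among those 4 as well, so the shares are not separate, and no difference between them was tested. A match describes the letters and is not evidence that the factor was bound.

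**Figure D4:**
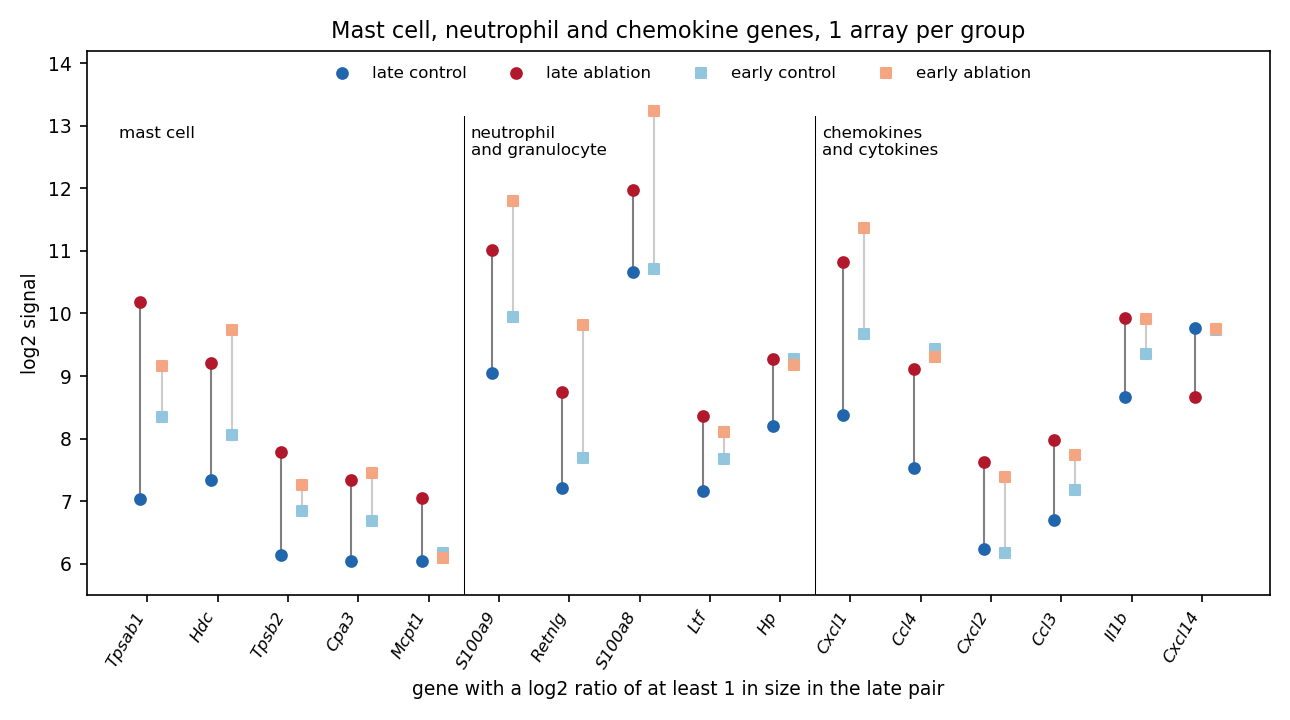
Log2 signal on the 4 arrays of the platform for the mast cell, neutrophil and chemokine genes with a log2 ratio of at least 1 in size in the late pair; circles are the late arrays, squares the early arrays, and a grey line joins a pair. All except Cxcl14 read higher with late ablation, from 7.03 to 10.18 for Tpsab1 and from 8.38 to 10.82 for Cxcl1.

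Interferon-stimulated genes were higher by smaller steps. Of 23 measured of 27 on the array, 21 were above 0, against 51.5% of all genes. Past the fold 2 were higher and 0 lower, against 0.453% and 0.775% of all genes. The median log2 ratio of the 23 was 0.33, with an early median of 0.019. Ifit3, an antiviral effector, read 9.85 on the late ablation array and 8.73 on the late control array. Usp18, which removes the ubiquitin-like protein ISG15 from its targets, read 9.999 against 8.98. Isg15 itself read 10.28 against 9.29, just under the fold, and the antiviral enzyme Rsad2 had a log2 ratio of 0.75. Among 13 T and NK cell genes 10 were above 0, with a median of 0.23. Of the 13, 7 were above background on both late arrays, with a median of 0.23. Another 4 were so on the ablation array only and 2 on the control array only, so the filter largely set their direction. Higher past the fold was 1 gene, against 0.453% of all genes. This was Prf1, the pore-forming perforin of cytotoxic cells, at 10.23 against 8.84, but its probes disagreed, the other giving a ratio of -0.02. The defining T cell genes Cd4 and Cd8a did not pass the filter.

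All 9 genes of the dendritic cell and MHC class II list that were measured, of 18 on the array, were below 0, with a median of -0.57 and none past the fold. Cd74, the invariant chain of class II molecules, read 12.07 on the late ablation array and 12.82 on the late control array. H2-DMa, which loads peptide on class II, read 9.93 against 10.68, and the class II chain H2-Eb1 read 10.75 against 11.48. H2-Ab1 read 11.72 against 12.35, but its probes ranged from -1.43 to 0.11. The early pair had a median of -0.33 for this list, in the same direction. Of 21 macrophage and monocyte genes 16 were below 0, 1 was higher and 1 lower past the fold, and the median was -0.26. The lower gene was Chil3, a chitinase-like protein of alternatively activated macrophages, at 7.37 against 9.56. The higher was Gpnmb, a lysosomal membrane glycoprotein of macrophages, at 9.79 against 8.33. The complement gene C1qb was at -0.81 and the lipopolysaccharide co-receptor Cd14 at 0.74.

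Some genes with the highest ratios belonged to no list. Hsd3b2, of the steroid dehydrogenase family, read 12.61 on the late ablation array and 9.76 on the late control array. The early arrays read 12.59 and 9.77, nearly the same pair of values. Its family holds closely related members, and a second probe gave a late ratio of 0.46, so the assignment to Hsd3b2 is uncertain. Gm7609 read 9.51 against 7.41 in the late pair and 9.53 against 7.46 in the early pair. Erich5 read 11.60 against 9.78, and Zxda, a zinc finger gene of the X chromosome, read 10.03 against 8.38. Both were further apart in the early pair, with log2 ratios of 3.17 and 2.58. By contrast Prrc2a, at 9.17 against 7.61, had an early log2 ratio of 0.07, and Clip4, at 10.25 against 8.88, one of 0.77.

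Housekeeping and stress programmes differed little. Of 22 cell cycle genes, 24 respiratory chain genes and 18 unfolded protein and stress response genes 0 were past the fold, with medians of 0.0095, 0.048 and 0.033. The highest ratios there were 0.52 for the mitotic activator Cdc20, whose probes ranged from -0.26 to 0.52, and 0.72 for Ddit3, the CHOP factor of the stress response. Of 14 p53 response and cell death genes 1 was lower past the fold, the death receptor Tnfrsf10b at 7.74 against 8.79, and the cell cycle inhibitor Cdkn1a was at 8.86 against 8.17.

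Markers of tissue around the tumour also differed between the late arrays. Of 16 skeletal muscle genes measured, 14 were below 0 and 5 were lower past the fold, against 48.4% and 0.775% of all genes. The median of the 16 was -0.87. Above background on both late arrays were 12, with a median of -0.71. The other 4 were kept through the control array only, where they were high. Acta1, the actin of skeletal muscle, read 8.73 on the late ablation array and 10.75 on the late control array, and the calcium pump Atp2a1 read 8.14 against 9.84. In the early pair 15 of the 16 were higher past the fold, against 0.942% of all genes. The early median was 2.67, and Acta1 read 12.37 against 6.14. Muscle signal also varied within replicate groups, since Acta1 read 5.503, 9.09 and 11.86 on the TK/IgG arrays and 9.78, 6.09 and 12.002 on the WT/IgG arrays. Of 5 adipocyte genes measured the median was -0.23. The part that surrounding tissue has in the matrix and endothelial ratios was not tested.

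The early pair, which shares no array with the late pair, was set beside the genes past the fold. Of the 38 higher genes 31 were also above 0 early (47.0% of all genes were), and 17 were past the fold in the same direction, against 0.942% of all genes. They include Hdc, with an early log2 ratio of 1.67, and Cxcl1, Hsd3b2, S100a8 and S100a9. The other 7 were not above 0 early, and 1 of them, the granzyme Gzmg, was lower past the fold. Gzmg, read after its value was seen, was at 1.10 late and -1.34 early. Of the 65 lower genes 18 were below 0 early (52.8% of all genes were). Lower past the fold early was 1, Tnfrsf10b at -1.25, against 0.155% of all genes. Higher past the fold early were 11, against 0.942% of all genes. Among the 11 were the skeletal muscle genes Acta1, Atp2a1, Myl1 and Tnnc2, and also Lox. The difference between the pairs was not tested, as each has 1 array per group.

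The replicated hosts gave a test on arrays other than the 2 late ones, although nothing states whether the platforms shared tumours. By limma 0 of 11057 genes (0%) passed an adjusted p of 0.05 in TK/IgG minus WT/IgG, and the lowest adjusted p was 0.495. At an unadjusted p below 0.05 there were 325 genes, 137 higher (1.24%) and 188 lower (1.70%) in TK/IgG. Of the 37 higher genes measured there, 35 were also higher in TK/IgG (94.6%, against 44.8% of all genes), with a median difference of 0.76. Of the 65 lower genes 56 were also lower in TK/IgG (86.2%, against 55.2% of all genes), with a median difference of -0.62 against -0.023 over all genes. The TK/IgG and WT/IgG arrays did not overlap, in the same direction, for 3 of the higher genes and 16 of the lower genes, against 3.03% and 5.05% of all genes on both platforms.

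Several stromal genes were among those whose arrays did not overlap. Col6a2 read 7.91, 7.07 and 7.16 on the TK/IgG arrays and 8.51, 8.16 and 8.56 on the WT/IgG arrays, a difference of -1.03 ± 0.34 (SE). Olfml3 read 8.44, 7.85 and 9.04 against 9.69, 9.32 and 10.06, a difference of -1.25 ± 0.36 (SE). Lrrc15 read 9.65, 8.36 and 7.56 against 10.22, 9.94 and 9.99. In Col15a1 the arrays read 7.99, 7.56 and 8.01 against 8.42, 8.52 and 8.62. The Col1a1 arrays overlapped, at 9.39, 8.39 and 8.46 against 10.35, 9.34 and 9.96, with a difference of -1.14 ± 0.53 (SE). Of the 24 fibroblast and matrix genes also measured in the late pair, 22 were lower in TK/IgG, with a median of -0.58. The list means were 8.74 ± 0.098 in TK/IgG and 9.32 ± 0.34 in WT/IgG (SD, n = 3 each). These means cover every list member measured on the 9 arrays, including any not measured in the late pair. None of these genes passed the adjusted threshold.

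Endothelial genes did not show the late difference there. In TK/IgG 11 of 21 were lower, with a median of -0.00013. Cdh5 read 7.51, 7.95 and 8.58 on the TK/IgG arrays and 7.90, 7.56 and 8.48 on the WT/IgG arrays, and Esam read 9.64, 9.90 and 10.56 against 10.02, 9.33 and 10.39. The class II list was lower for all 8 genes also measured in the late pair, with a median of -0.65. Its list means, over every member measured on the 9 arrays, were 7.98 ± 0.75 and 8.50 ± 0.70 (SD, n = 3 each). Over that wider set of genes the means differed by less than the spread within either group.

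Gpnmb had the smallest unadjusted p of the higher genes. It read 10.37, 9.72 and 10.37 on the TK/IgG arrays and 8.82, 8.32 and 8.92 on the WT/IgG arrays, a difference of 1.47 ± 0.24 (SE), close to the late log2 ratio of 1.46. Hsd3b2 read 13.49, 11.69 and 12.22 against 11.38, 11.31 and 11.67, and the groups did not overlap. Cxcl1 read 10.54, 9.28 and 10.60 against 9.82, 8.78 and 9.54, with a difference of 0.76 ± 0.54 (SE). Tpsab1 read 9.10, 8.93 and 8.74 against 9.26, 5.33 and 8.41, so that the second WT/IgG array was by far the lowest of the 6, and the difference was 1.26 ± 0.87 (SE). S100a9 overlapped, at 13.24, 11.05 and 12.88 against 12.30, 12.05 and 11.79. For Gm7609, Erich5 and Zxda the first TK/IgG array was the highest of the 6, at 12.08, 13.93 and 12.25. Without that array the median difference of the higher genes was 0.34 in place of 0.76.

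**Figure D5:**
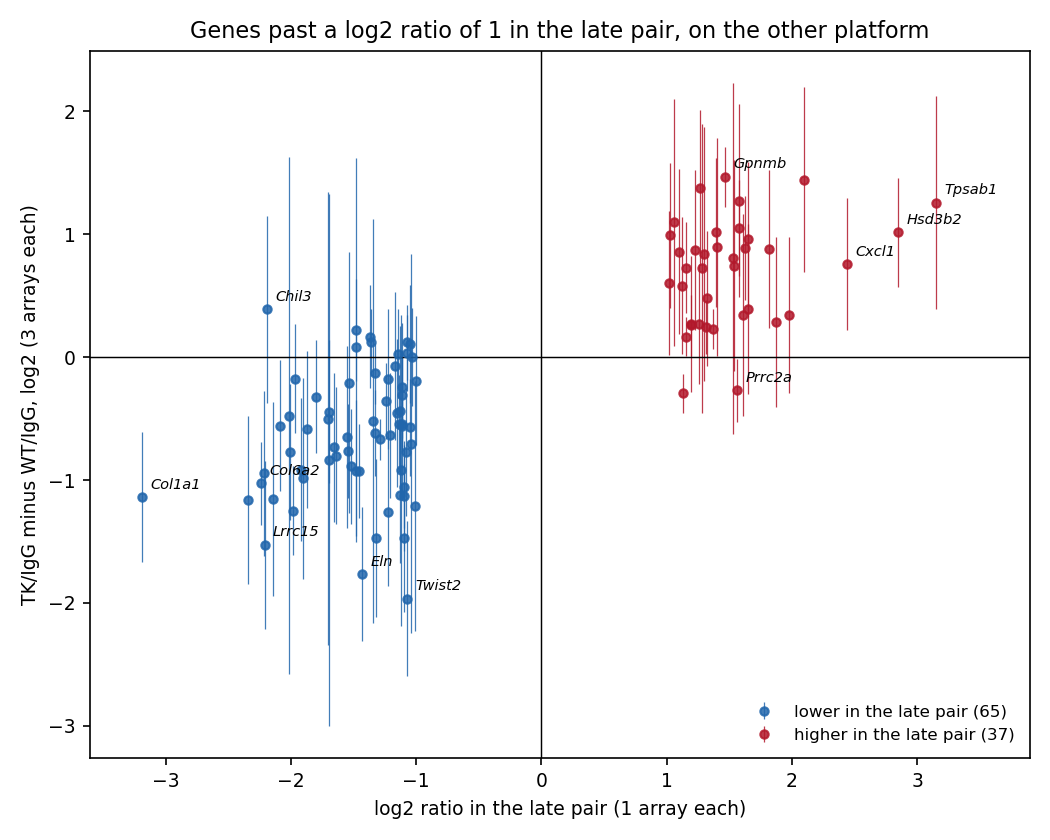
Genes past a log2 ratio of 1 in size in the late pair and measured on the other platform: the late log2 ratio (horizontal axis) against the difference TK/IgG minus WT/IgG (vertical axis), with bars of 1 SE from the limma fit. Of 37 higher genes 35 lie above 0 and of 65 lower genes 56 lie below 0, with Gpnmb at 1.47 and Eln and Twist2 lowest.

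The spread between the arrays of a group, pooled over the 9 arrays of the other platform, gave a rough scale for single-array ratios, although platform and scale differ. A ratio exceeded 2 times the spread of a difference between 2 such arrays for 9 higher and 10 lower genes. Of all 7947 genes measured on both platforms 254 exceeded it, so genes under the fold did so too. As the genes past the fold were chosen for large ratios, these counts are a description only. Col1a1, Col6a2, Olfml3, Col15a1 and Acta2 were among the lower genes and Cxcl1, Gpnmb, Hsd3b2, Clip4 and Prrc2a among the higher genes that did so. Prrc2a and Chil3 were among the genes that pointed the other way in the replicated hosts, with differences of -0.27 ± 0.26 and 0.39 ± 0.76 (SE).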

How the data were processed

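The late pair was read from a table that holds, per the file headers, a probe signal for each of 4 arrays, deposited by the authors as an intensity on a linear scale without normalisation, and a detection p-value. GenomeStudio was used, per the submitters' processing notes; no version or setting is stated in those sources. The deposited detection column of the late control repeats its signal, so a probe was kept at a detection p-value below 0.05 on the ablation array (42.6% of probes) or at a control signal in the same top share (111.9 or more). Of 25697 probes 11740 were kept, giving 8386 genes. Median signals were 82.0 (late ablation) and 97.9 (late control), and the number of arrays limits the precision. Signals were corrected with normexp (offset 50), quantile-normalised over the 4 arrays and taken to log2 with limma 3.58.1 in R 4.3.3, in place of a correction that needs detection p-values. Each gene is its brightest probe, named from the platform annotation (23978 probes with 1 symbol, 1719 with none, 23962 matched to RefSeq GRCm38.p6). Where a gene was above background on 1 array only, its fold is a bound, the bright array over the higher of the lowest detected signal and the gene's own value.

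The authors' processed intensity values follow a straight line on each array's deposited signal (residuals up to 0.109), so they are linear and uncentred, with medians of 21.5 to 28.1, and they were used as an alternative with a floor of 16. The 9 arrays of the other platform, deposited in the same units with detection p-values, were normalised apart with neqc (offset 16), kept where detected on at least 3 arrays (11057 genes) and fitted together with limma's lmFit and eBayes, with Benjamini-Hochberg adjustment. P-values measure only the spread between these arrays. Of its columns, 6 name no sample of these groups and were left out. The fit was tested on simulated data.

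Genes named are 15 that the naming rule always takes, of which Mki67 was not analysed here and Met was not well above background, the 15 highest and 15 lowest ratios of genes with above-median signal, and up to 4 such members of each list with at least 5 members; others are said to be named after their values were seen. The comparison, the 28 lists and the named genes were chosen with earlier results of these data known. The B cell, keratinocyte, milk, lymphatic and nerve lists had under 5 members measured and are not described. Alternatives varied offset, scaling, value source, filter, probes per gene, and arrays left out.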

Additional observations from a re-analysis of the deposited data

Results flagged for a closer look

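For 5 of the named genes the early and late pairs lay past the fold in opposite directions; the difference itself was not tested, as each pair has 1 array per group. Late minus early log2 ratio was -8.25 for Acta1, -6.95 for Atp2a1, -6.89 for Myl1 and -6.53 for Tnnc2, all skeletal muscle genes. For Lox, the collagen cross-linking oxidase, it was -2.47, from -1.12 late and 1.35 early.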

How the results depend on the processing

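With a normexp offset of 16 the late pair had 65 genes higher and 113 lower past the fold, the early pair had 21 lower, and the pericyte median was -0.46. With the authors' processed values the late counts were 333 and 249 and the early counts 186 and 56, and the pericyte, endothelial and mast cell medians were -0.61, -0.96 and 2.41. Scaling to the 75th percentile moved the pericyte median to -0.13 and the respiratory chain median to -0.022. Without a detection filter the mesenchymal and basement membrane medians were -0.0084 and -0.19, and 658 genes on the 9 arrays had an unadjusted p below 0.05; the same setting moved the class II, T and NK cell and hypoxia medians to -0.17, 0.052 and 0.029. With genes detected on both late arrays the mast cell median was 2.51, over 2 genes only. Of 924 alternative ratios of the 103 named genes, 11 moved by more than the replicate spread. Direction was checked only for named genes past the fold, and none of these changed direction. Smaller ratios could change sign, as those of Cdh1 and Vim did. Leaving out 1 of the 9 arrays in turn, the anti-Ang2 arrays included, gave 205 to 429 genes at an unadjusted p below 0.05, the lowest without WT/IgG array 2 and the highest without anti-Ang2 array 2 (up to 389 without a TK/IgG or WT/IgG array), and 0 at the adjusted threshold; the medians of the higher and lower genes ran from 0.34 to 1.06 and from -0.89 to -0.44. The replicate numbers were not taken to pair the hosts (correlations of same-numbered deviations 0.044, 0.040 and 0.39); with the replicate block 0 genes passed the adjusted threshold and 370 an unadjusted p below 0.05. The late pair has 1 array per group, so nothing there could be left out. Genes near the detection limit have only bounds.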
